A study of Mus musculus with 18 samples.

Results

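The 8 genes Rmrp, Rpph1, Snhg1, Snhg3, Snhg9, Gas5, Malat1 and Neat1, which make long noncoding and structural RNAs, were followed in mRNA-seq libraries of mouse fibroblasts under heat stress and ER stress. They were taken by gene name, 8 of the 20207 genes in the files. All 8 had at least 1 read in each of the 18 samples and so were among the 12731 genes tested. The list was drawn up with earlier results of these data known, so the levels below are a description. The adjusted p-values place each gene among all genes tested and are no independent evidence for it.

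The cells were NIH3T3, a mouse embryonic fibroblast line, carrying a stably integrated DD-GFP transgene (for the high-expressing line, on a PiggyBac transposon vector per the study's methods): a destabilizing domain of FKBP12 (the L106P mutant) joined to superfolder GFP. They had been sorted for high DD-GFP, and the stabilizing ligand Shield-1 was kept on them in all 6 groups, the controls included. Control cells stayed at 37°C without drug, HS cells were moved to 42°C for 45 or 135 min, and Tu cells received 5 µM tunicamycin, an inhibitor of N-glycosylation, for 45, 135 or 405 min. Each group had 3 samples; the labels do not say whether these were separate cultures, so p-values measure only the spread between these samples. Per the study's methods, RNA was selected on oligo(dT) beads, which hold RNA through a poly(A) tail, and copied from random hexamers. A second library kit was also used, and the samples made with it are not named.

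Rmrp is the RNA of RNase MRP, an enzyme of ribosomal RNA maturation, and Rpph1 is the RNA of RNase P, which trims the 5′ leader of tRNA precursors. Both are short RNA polymerase III transcripts without a poly(A) tail, and the enzymes share most of their protein subunits. Snhg1, Snhg3, Snhg9 and Gas5 are host genes: small nucleolar RNAs are cut from their introns, while the spliced exons form a polyadenylated RNA that encodes no known protein and, for Gas5 and Snhg1, is short-lived through nonsense-mediated decay. Malat1 and Neat1 are abundant nuclear RNAs, of nuclear speckles and of paraspeckles. RNase P cuts the Malat1 precursor next to an A tract encoded in the genome, which takes the place of a tail; the short form of Neat1 has a tail, and its long form ends in the same way as Malat1.

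Rmrp is shown whole and Rpph1 over its first 300 bases because the results turn on them and because a library made with oligo(dT) is not designed to hold them. These genes lie at chr4:43505657-43505931 and chr14:51427122-51427446 of mm9, both on the minus strand. Read from that genome 5′ to 3′, with the longest runs of A in capitals, the sequences are:
Rmrp: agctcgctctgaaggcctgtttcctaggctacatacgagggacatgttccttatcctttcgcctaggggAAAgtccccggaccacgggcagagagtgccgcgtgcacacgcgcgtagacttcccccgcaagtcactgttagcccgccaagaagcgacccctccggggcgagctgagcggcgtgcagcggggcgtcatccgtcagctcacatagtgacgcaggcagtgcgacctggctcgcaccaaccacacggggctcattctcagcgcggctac
Rpph1: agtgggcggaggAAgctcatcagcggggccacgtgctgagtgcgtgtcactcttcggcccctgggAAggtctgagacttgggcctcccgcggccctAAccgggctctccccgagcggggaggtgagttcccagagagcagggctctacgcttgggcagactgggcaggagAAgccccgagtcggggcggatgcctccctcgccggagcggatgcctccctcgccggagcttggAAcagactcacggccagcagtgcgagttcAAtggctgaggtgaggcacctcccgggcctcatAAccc
No run of A in the 275 bases of Rmrp was longer than 3, and none in the 325 bases of Rpph1 was longer than 2. GC made up 63.6% of Rmrp and 66.8% of Rpph1. In a global alignment the RNAs were identical at 177 of 343 columns (51.6%).

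The other 6 spans carried AATAAA or ATTAAA, the usual signals for addition of a tail, in their last 60 bases, and Rmrp and Rpph1 carried neither. These ends are shown with the signal in capitals, to set the 6 RNAs against Rmrp and Rpph1:
Snhg1: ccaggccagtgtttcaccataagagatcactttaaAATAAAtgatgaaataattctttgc
Snhg3: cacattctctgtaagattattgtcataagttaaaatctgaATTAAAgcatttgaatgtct
Snhg9: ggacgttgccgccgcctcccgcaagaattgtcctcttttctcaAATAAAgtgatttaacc
Gas5: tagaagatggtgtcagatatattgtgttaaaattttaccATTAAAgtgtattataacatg
Malat1: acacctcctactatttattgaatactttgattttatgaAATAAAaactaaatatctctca
Neat1: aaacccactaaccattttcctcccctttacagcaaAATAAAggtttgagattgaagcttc
Snhg1 spans chr19:8797977-8800816 (plus strand), Snhg3 chr4:131907848-131909601 (minus), Snhg9 chr17:24856479-24856894 (minus) and Gas5 chr1:162965297-162968668 (plus). Malat1 spans chr19:5795690-5802671 and Neat1 chr19:5842302-5845478, both on the minus strand and 39631 bases apart. The Neat1 span counted is the 5′ stretch that both of its forms contain, so the tailed and the tail-less form could not be told apart. The longest A run of any of the 8 genes was in Malat1, 12 bases long, starting at base 6673 of the span and ending 298 bases before its end:
Malat1: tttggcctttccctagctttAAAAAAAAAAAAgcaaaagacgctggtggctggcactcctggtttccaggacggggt

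Samples held 33415591 to 66478268 gene reads, and levels are given as CPM, reads of a gene relative to all gene reads of its library, scaled with TMM factors over all 18 samples. A count of 3 reads, taken as the floor, was 0.0451 to 0.0898 CPM, which covers counting error only. Each of 8 fibroblast markers was at 45.5 CPM or more in every sample, and 1 of 10 markers of other cell types exceeded 1 CPM throughout, the highest at 25.2. The fibroblast markers were not level at Tu 405 min: 5 of 8 were called lower there (median log2 fold change -0.68), as were 23.5% of all genes. S100a4 was at -2.50 (adjusted p = 1.77e-05, edgeR) and Pdgfrb at -2.14 (adjusted p = 0.000174, edgeR), while Tubb3, a neuronal tubulin gene among the other markers, was higher by 2.07 (adjusted p = 7.05e-05, edgeR). Their part in the Tu 405 min results below was not tested. The heat shock gene Hspa1b was at 5.47 to 6.30 CPM in controls and at 263 to 1214 at HS 135 min, and the ER chaperone gene Hspa5 at 656 to 735 in controls and at 8803 to 9291 at Tu 405 min. HS 45 min replicate 3 stood apart: over genes it correlated with its fellows at r = 0.936 and 0.955 (log2 CPM) against 0.990 between them, and its Hspa1b, at 46.0 CPM, lay below theirs, at 280 and 223. Hsph1, another heat shock gene, did not set it apart, at 498.5 CPM against 503.7 in replicate 1 and 292 in replicate 2. HS 135 min replicates 1 and 2 also differed, at r = 0.935, with replicate 3 between them (0.988 and 0.970), while all pairs in the other groups reached 0.972 or more. At HS 135 min replicate 1 was lowest for Hspa1b (263 CPM) but highest for Hsph1 (2717 CPM, against 1242 and 2124 in replicates 2 and 3). A fall in an RNA per cell and a shift in what the other RNAs contributed cannot be told apart in such libraries, and neither can fewer cells of a kind and less RNA per cell.

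Genes with an adjusted p-value under 0.05 in edgeR's quasi-likelihood test are named called. Against the control, 0 of the 8 genes were called at HS 45 min (0% of all genes tested), 3 at HS 135 min (7.39% of all), 1 at Tu 45 min (6.17%), 0 at Tu 135 min (0.134%) and 3 at Tu 405 min (46.8%). Nothing is read from these shares, since the 8 genes were chosen with such values known. At HS 45 min, 3 of the 8 and 2480 of all genes had an unadjusted p under 0.05, and at Tu 135 min 1 of the 8 and 2369. The DESeq2 Wald test called 2 of the 8 and 451 genes in all at HS 45 min, and 1 of the 8 and 665 in all at Tu 135 min. At HS 135 min 2 of the 8 were higher (4.75% of all genes) and 1 was lower (2.64%), and the median log2 fold change of the 8 was -0.35 against -0.02 over all genes. The gene called at Tu 45 min was higher (4.01% of all genes were, and 2.17% lower). Of those called at Tu 405 min, 2 were higher (23.3%) and 1 was lower (23.5%), with medians of 0.03 over the 8 and -0.01 over all genes.

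**Figure D1:**
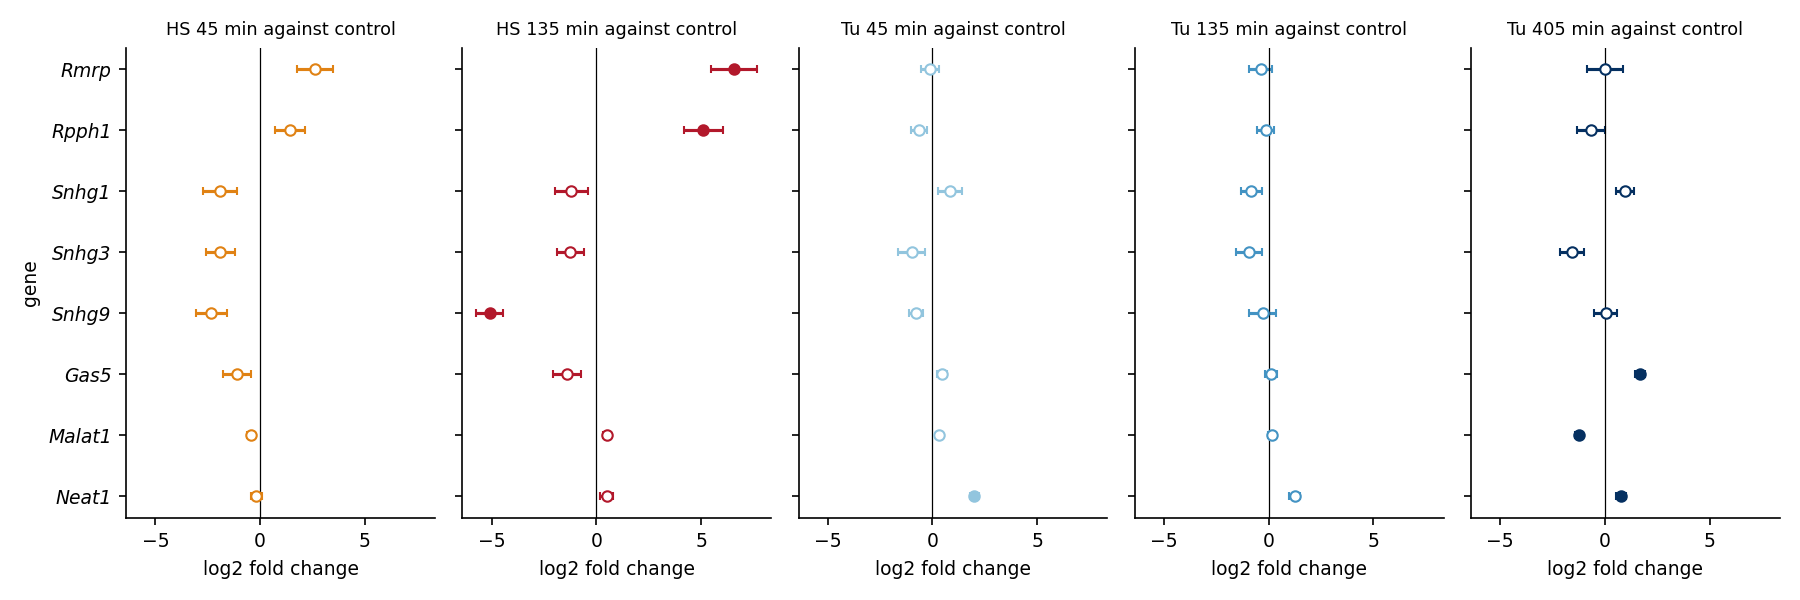
The log2 fold change against control (horizontal axis) is drawn for each of the 8 genes (rows) in 5 panels, 1 per stress and time; points are edgeR estimates, bars are standard errors, and filled points have an adjusted p under 0.05. Rmrp and Rpph1 lie far to the right and Snhg9 far to the left at HS 135 min, at 6.59, 5.12 and -5.09, while Gas5, Malat1 and Neat1 are the filled points at Tu 405 min.

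Rmrp and Rpph1, the RNA polymerase III transcripts without a tail, were scarce in control libraries and rose at HS 135 min. Rmrp had 17, 58 and 23 reads in the controls (0.427, 1.03 and 0.526 CPM) and 361, 3140 and 6783 at HS 135 min (5.71, 69.6 and 119 CPM). Every HS 135 min sample lay above every control, but its samples differed among themselves by more than 10-fold. On the log2 scale Rmrp was higher by 6.59 (standard error 1.09, adjusted p = 0.0201, edgeR). Even in its highest sample Rmrp took 0.0109% of the reads on genes.

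Rpph1 followed the same samples at a lower level. It had 16.9, 45.9 and 16.0 reads in the controls (0.427, 0.821 and 0.366 CPM) and 157, 864 and 2005 at HS 135 min (2.48, 19.2 and 35.2 CPM), which came to 5.12 on the log2 scale (standard error 0.934, adjusted p = 0.0240, edgeR). The groups did not overlap, and HS 135 min replicate 3 was again highest and replicate 1 lowest. Rpph1 counts were not whole numbers, as for reads shared with other places in the genome, and are less certain for that. The adjusted p rose above 0.05 without HS 135 min replicate 3 (0.107 for Rmrp with a log2 fold change of 5.81, and 0.114 for Rpph1 with 4.31) and without any of the 3 controls (0.0667 to 0.111 for Rmrp and 0.0753 to 0.120 for Rpph1); both calls held without replicate 1 or 2.

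At HS 45 min the picture was split by sample. Rmrp had 424 and 174 reads in replicates 1 and 2 (8.09 and 3.79 CPM), above every control, and 39 in replicate 3 (0.567 CPM), within the control range. Rpph1 was at 2.69, 1.44 and 0.334 CPM, of which the last lay below every control. Neither gene was called, with log2 fold changes of 2.63 for Rmrp (adjusted p = 0.230, edgeR) and 1.44 for Rpph1 (adjusted p = 0.276, edgeR). Without replicate 3, the library that stood apart, they were 3.13 for Rmrp (adjusted p = 0.00276, edgeR) and 1.91 for Rpph1 (adjusted p = 0.0119, edgeR). That library was set apart after its values were seen. Over the 6 fits that left out a sample they ran from 1.69 to 3.13 for Rmrp and from 0.69 to 1.91 for Rpph1. No other of these 6 fits called either gene. Over 10 other settings the values ran from 1.125 to 2.65 for Rmrp and from 0.08 to 1.47 for Rpph1. Of these settings only the DESeq2 Wald test called Rmrp, and none called Rpph1.

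Both RNAs were scarce in tunicamycin samples. Rmrp had 60, 27 and 29 reads at Tu 45 min, 35, 10 and 19 at Tu 135 min and 5, 17 and 93 at Tu 405 min, and Rpph1 ranged from 0.0788 to 0.720 CPM over the 9 samples. Their ranges overlapped the control range at each time, and neither was called. At Tu 405 min replicate 3 held the most reads of both, and without it Rpph1 was called lower than control (log2 fold change -1.82, adjusted p = 0.0448, edgeR); with it the value was -0.68 (adjusted p = 0.431, edgeR).

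Per base of RNA, on the deposited RPKM scale, Rmrp over Rpph1 was 1.11, 1.40 and 1.59 in the controls and 2.54, 4.02 and 3.74 at HS 135 min. The ratio was also higher in the HS 45 min samples, at 3.33, 2.92 and 1.88, and over the Tu samples it ran from 0.553 to 2.92 on few reads. Every HS sample had a higher ratio than every control.

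**Figure D2:**
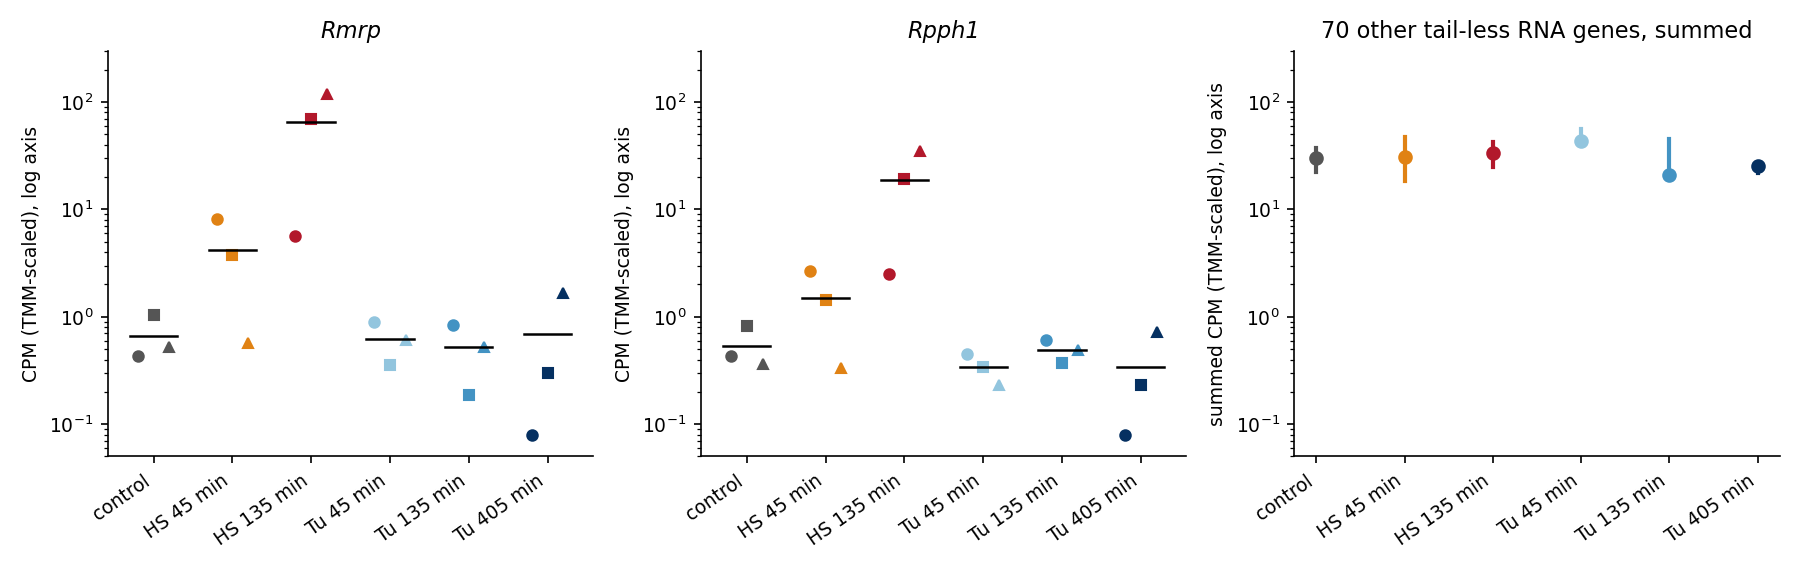
CPM of Rmrp and Rpph1 in each sample (points, with a circle, square and triangle for replicates 1, 2 and 3; lines are group means) is plotted on log axes by group, beside the summed CPM of 70 other genes whose RNAs lack a poly(A) tail (points are medians of 3 samples, bars the range). Rmrp reaches 5.71 to 119 CPM at HS 135 min, while the summed level of the 70 genes runs from 24.8 to 42.2 there and from 22.1 to 36.9 in controls. Most of the 70 are histone genes.

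Other RNAs without a tail were read beside them. A list of 70 genes, made up of replication-dependent histone genes, some of which also give tailed transcripts, and small RNAs such as Terc, the telomerase RNA, summed to 22.1 to 36.9 CPM in controls, 18.4 to 47.0 at HS 45 min and 24.8 to 42.2 at HS 135 min. Most of the 70 were histone genes. Vaultrc5, Rn4.5s, Rnu11, Rnu12 and Rnu73b had a count of 0 in at least 1 sample and were not tested. Apart from Terc and the row named Rnu7, every row tested was a histone gene. The sum and the counts therefore say little of other small RNAs without a tail. Of the 32 that were tested, 2 were higher and 1 was lower at HS 135 min (4.75% and 2.64% of all genes), with a median log2 fold change of -0.16. Hist2h2be rose to 1.94 from 0.489 CPM (log2 fold change 1.97, adjusted p = 0.0199, edgeR) and Hist3h2a to 10.4 from 3.10 CPM (1.75, adjusted p = 0.0210, edgeR), while Hist1h2ab fell to 0.321 from 1.21 CPM (-1.91, adjusted p = 0.0210, edgeR). In controls Hist2h2be and Hist3h2a had medians of 0.549 and 3.16 CPM but means of 0.165 and 1.375 RPKM. Hist1h2ab had 1.285 CPM and 2.086 RPKM. The rows of both genes that rose thus cover more bases than that of Hist1h2ab. Whether their reads came from tailed transcripts was not tested. Of the 32, 3 were higher and 0 lower at Tu 45 min (4.01% and 2.17% of all genes), and 2 were higher and 15 lower at Tu 405 min (23.3% and 23.5% of all genes), with a median of -1.32. The row named Rnu7 spans far more than the U7 small nuclear RNA, so its reads are not a level of that RNA; without it, in a count added after the data were seen, 31 genes were tested, with 2 higher and 1 lower at HS 135 min and 2 higher and 14 lower at Tu 405 min. Terc was at 0.348 CPM or less in every sample. Capture of RNA without a tail was not measured in these libraries, and the kit used for each sample is not stated. The part of either in the rise of Rmrp and Rpph1, or in the spread of their HS 135 min samples, was not tested.

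Genes for the protein partners of both RNAs were read beside them. Of 11 genes for subunits of RNase P and RNase MRP, 10 were tested, and 0 were called in either direction at HS 45 min or HS 135 min (medians -0.44 and -0.26). Over all genes 0% were called at HS 45 min and 7.39% at HS 135 min, so a count of 0 among 10 is not read as a result. Their summed level was 129 to 190.5 CPM in controls and 121 to 133 at HS 135 min. Pop5 was lower at Tu 45 min (-0.90, adjusted p = 0.0212, edgeR), the 1 call there (2.17% of all genes were lower). At Tu 405 min 5 of the 10 were higher and 0 lower (23.3% and 23.5% of all genes). Rpp40 was at 15.5 ± 0.786 against 7.62 ± 2.05 CPM (SD, n = 3; log2 fold change 1.02, adjusted p = 0.00503, edgeR) at Tu 405 min, when Rmrp and Rpph1 were not called.

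The nearest genes were also read, chosen by position after the values were seen. In the RefSeq models Ccdc107 lies 345 bases from Rmrp, while a GENCODE model of it on the opposite strand starts inside the Rmrp span. Its log2 fold change at HS 135 min was -0.10 (adjusted p = 0.840, edgeR). Parp2, 175 bases from Rpph1, had -0.45 (adjusted p = 0.292, edgeR). Neither neighbour was called at HS 135 min, and both were higher at Tu 405 min (Ccdc107 by 1.79, adjusted p = 0.000812, and Parp2 by 0.55, adjusted p = 0.0148, edgeR). Since the counting is not stated to use strand, reads of overlapping transcripts could not be told apart.

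Snhg9, which hosts an H/ACA small nucleolar RNA, moved the other way. It had 2590, 1364 and 1848 reads in controls (65.0, 24.4 and 42.3 CPM) and 147, 42 and 33 at HS 135 min (2.33, 0.931 and 0.580 CPM). Every HS 135 min sample lay below every control, and on the log2 scale the difference was -5.09 (standard error 0.630, adjusted p = 0.0122, edgeR). HS 135 min replicate 3, the highest for Rmrp and Rpph1, was the lowest for Snhg9. The adjusted p was 0.0761 without that sample and 0.0650 without control replicate 3, with log2 fold changes of -4.74 and -5.12; the call held in the other 4 fits that left out a sample.

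At HS 45 min Snhg9 had 350, 87 and 1213 reads (6.68, 1.89 and 17.6 CPM), all below the controls. The log2 fold change of -2.33 was not called (adjusted p = 0.227, edgeR) and was -3.35 without replicate 3 (adjusted p = 0.00620, edgeR). Under tunicamycin the gene was not called at any time, with 21.3 to 27.6 CPM at Tu 45 min. At each of the later times 1 sample lay below every control and far below its fellows, Tu 135 min replicate 3 at 7.39 CPM against 43.4 and 55.5, and Tu 405 min replicate 1 at 13.9 against 53.3 and 65.9. Rps2, a ribosomal protein gene 114 bases away, had a log2 fold change of 0.15 at HS 135 min (adjusted p = 0.706, edgeR), and Rnf151, 1477 bases away on the other side, rose by 1.63 (adjusted p = 0.0234, edgeR).

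Gas5, host of a set of C/D box small nucleolar RNAs and itself named for its growth arrest-specific expression, rose at Tu 405 min. It had 3000, 7480 and 6464 reads in controls (75.3, 134 and 148 CPM) and 19400, 23740 and 21860 at Tu 405 min (306, 419 and 393 CPM). The groups did not overlap. On the log2 scale Gas5 was higher by 1.67 (standard error 0.252, adjusted p = 0.00114, edgeR). The call held in each of 6 fits that left out a sample and was lost in a shared fit of all 6 groups (1.65, adjusted p = 0.0689, edgeR). Earlier Tu samples gave 150 to 172 CPM at Tu 45 min (log2 fold change 0.47, adjusted p = 0.261, edgeR) and 108 to 155 at Tu 135 min. The length inferred for the Gas5 row was 2554 bases of a 3372-base span, so spliced RNA was not told apart from other reads of the span.

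Under HS the Gas5 samples spread widely. They gave 52.7, 11.6 and 102 CPM at HS 45 min and 78.8, 8.42 and 46.7 at HS 135 min. At each time 1 or more samples overlapped the controls. The log2 fold changes of -1.10 and -1.41 were not called (adjusted p = 0.331 and 0.199, edgeR), and at HS 45 min the value without replicate 3 was -1.89 (adjusted p = 0.0417, edgeR).

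Snhg1, whose introns carry a large set of C/D box small nucleolar RNAs, varied widely between replicates. It had 6.20, 20.4 and 25.3 CPM in controls, 1.53, 1.94 and 10.3 at HS 45 min and 12.65, 1.197 and 8.721 at HS 135 min. Its Tu levels were 51.3, 25.1 and 15.5 CPM at 45 min, 5.49, 12.4 and 11.1 at 135 min and 37.7, 32.1 and 29.8 at 405 min. All 3 Tu 405 min samples were above all 3 controls, yet the log2 fold change of 0.96 was not called (adjusted p = 0.0901, edgeR). Control replicate 1 was far below its fellows. Without control replicate 1 the value was 0.57 and called (adjusted p = 0.00495, edgeR), and without control replicate 3 it was 1.31 and called (adjusted p = 0.0433, edgeR). The other 4 contrasts with control were not called: -1.92 at HS 45 min (adjusted p = 0.257), -1.20 at HS 135 min (0.331), 0.85 at Tu 45 min (0.398) and -0.82 at Tu 135 min (0.420, all edgeR). At HS 45 min the value without replicate 3 was -3.32 (adjusted p = 0.00553, edgeR).

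Snhg3, the host of U17 small nucleolar RNA genes, was the scarcest of the host genes, with 20 to 229 reads a sample. Controls gave 0.502, 4.09 and 3.39 CPM, and no stressed sample exceeded 1.83 CPM, the range of all 15 being 0.535 to 1.83. Every stressed sample lay below control replicates 2 and 3 and above replicate 1. The log2 fold changes against control were -1.89 at HS 45 min, -1.24 at HS 135 min, -0.98 at Tu 45 min, -0.94 at Tu 135 min and -1.57 at Tu 405 min, none of them called (adjusted p = 0.238, 0.229, 0.386, 0.449 and 0.0587, edgeR). Without control replicate 1 the value at Tu 405 min was -2.05 (adjusted p = 8.50e-06, edgeR), at HS 135 min -1.72 (adjusted p = 0.0379) and at Tu 45 min -1.47 (adjusted p = 0.0292). The Tu 405 min samples lay within 0.882 to 0.899 CPM.

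**Figure D3:**
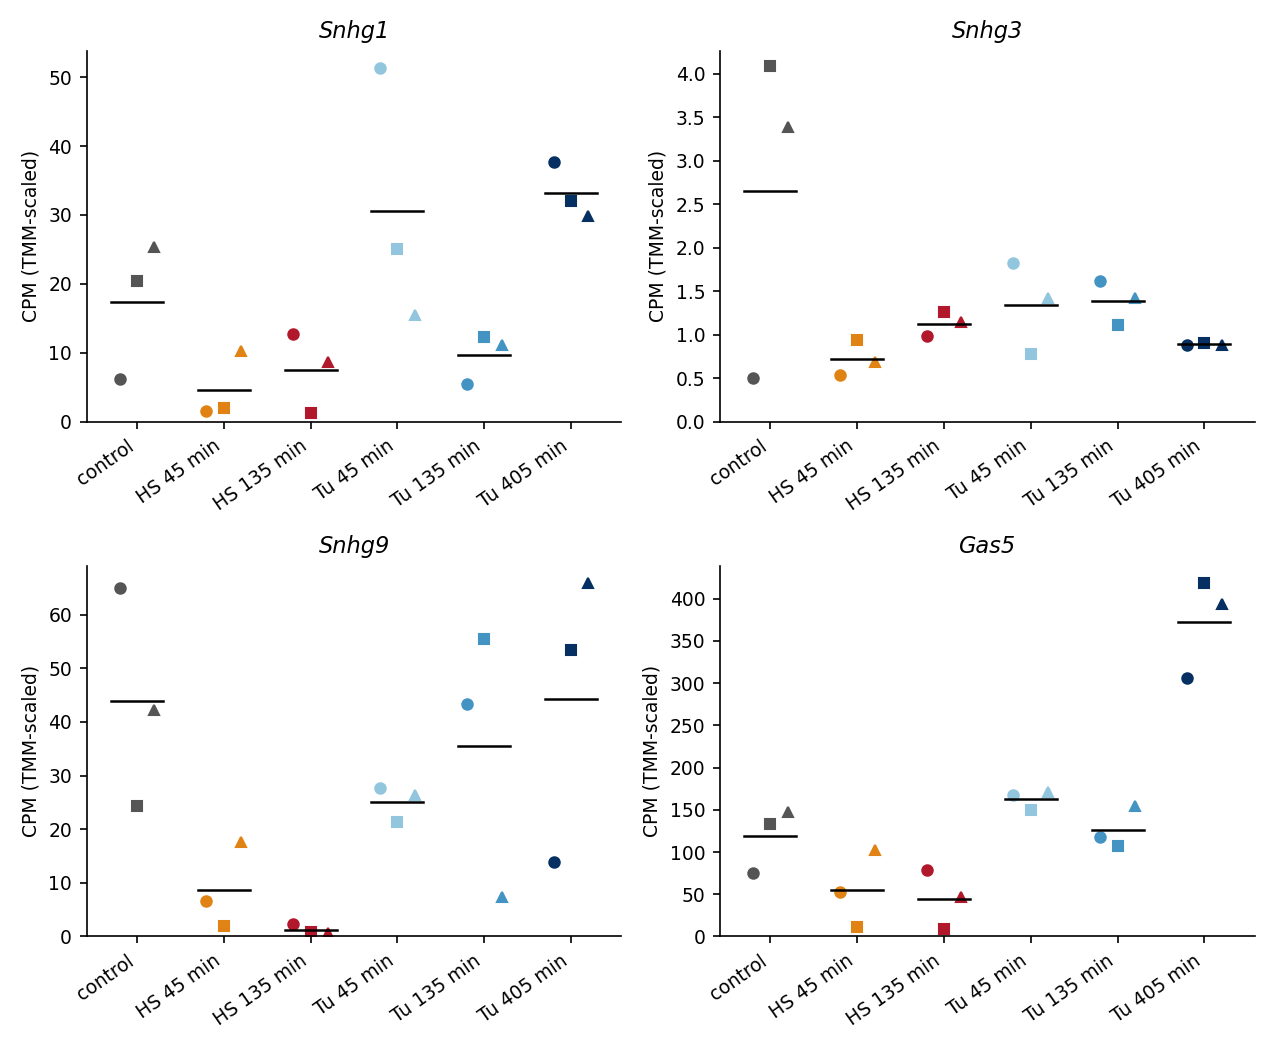
CPM of the 4 host genes in each sample is plotted by group on linear axes from 0 (circle, square and triangle for replicates 1, 2 and 3; lines are group means). Snhg9 drops to 0.580 to 2.33 CPM at HS 135 min, Gas5 reaches 306 to 419 CPM at Tu 405 min, and control replicate 1 sits far below the other controls for Snhg1 and Snhg3.

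Other host genes for small nucleolar RNAs were mostly higher at Tu 405 min, as Gas5 was. Of 13 in the files, 12 were tested; 8 were higher and 1 was lower at Tu 405 min, with a median log2 fold change of 0.78 against -0.01 over all genes (23.3% of which were higher and 23.5% lower). 1500012F01Rik, also named Zfas1, was at 303 ± 31.9 against 54.4 ± 12.1 CPM (SD, n = 3; log2 fold change 2.48, adjusted p = 5.25e-05, edgeR). 1810032O08Rik, also named Snhg16, had a log2 fold change of 2.23 (adjusted p = 1.90e-05, edgeR), and Eif4a2, a translation initiation factor gene, was the 1 that fell, by 0.79 on the log2 scale (adjusted p = 0.00763, edgeR). Their summed level was 562 to 842 CPM in controls and 1410 to 1530 at Tu 405 min.

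At Tu 45 min 4 of the 12 were higher and 0 were lower (4.01% and 2.17% of all genes), and at HS 135 min 0 were called (7.39% of all genes) with a median of -0.45. Their summed level was 213 to 574 CPM at HS 45 min and 262 to 520 at HS 135 min, below the lowest control in 5 of the 6 HS samples. Only 1 of the small nucleolar RNAs inside the 4 genes was in the files, Snord22 within Snhg1, at 0.577 to 3.70 CPM in controls and 3.36 to 6.68 at Tu 405 min (log2 fold change 1.32, adjusted p = 0.0738, edgeR).

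Factors of nonsense-mediated decay, the pathway that shortens the life of spliced Gas5 and Snhg1, moved in both directions at Tu 405 min. Of 14 tested, 5 were higher and 4 lower (23.3% and 23.5% of all genes). Upf1, the central helicase, was at 71.6 ± 1.39 against 160 ± 30.2 CPM (SD, n = 3; log2 fold change -1.16, adjusted p = 0.000568, edgeR). Upf3a rose by 1.13 (adjusted p = 0.00230, edgeR). At HS 135 min Rbm8a, of the exon junction complex, was higher (1.76, adjusted p = 0.0438, edgeR) and Smg5 lower (-0.95, adjusted p = 0.0285, edgeR). Whether these changes bear on Gas5 was not tested.

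Malat1 varied little between replicates. It had 370, 393 and 342 CPM in controls, from 14730 to 21990 reads, and 117, 155 and 194 CPM at Tu 405 min. The groups did not overlap, and on the log2 scale Malat1 was at -1.22 against control (standard error 0.191, adjusted p = 0.00135, edgeR), called in each of 6 fits that left out a sample. At Tu 45 min it was 436 to 471 CPM, above every control (log2 fold change 0.31, adjusted p = 0.158, edgeR), and at Tu 135 min 352 to 447. How the beads held an RNA with an A tract in place of a tail was not measured.

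Under HS Malat1 lay on opposite sides of the controls at 45 and 135 min on the CPM scale. Samples at HS 45 min gave 244, 284 and 285 CPM, all below the controls, and those at HS 135 min 596, 491 and 495, all above them. Without TMM scaling the HS 135 min samples were not all above. Replicate 2 there had 0.04045% of gene reads and 47.3 RPKM, below control replicate 2 at 0.04116% and 48.6 RPKM. The log2 fold changes were -0.44 (adjusted p = 0.257, edgeR) and 0.52 (adjusted p = 0.127, edgeR), and neither was called. With an offset for the GC content of the transcripts the HS 45 min value was 0.03, so its direction depends on that scaling. The HS 135 min value was called with that offset (0.91, adjusted p = 0.0315), in the shared fit of 6 groups (0.52, adjusted p = 0.0348) and with 1 surrogate variable (0.53, adjusted p = 0.0101, all edgeR). These were 3 of 10 other settings, over which the value ran from 0.36 to 0.91. It was called in 0 of 6 fits that left out a sample.

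Neat1 rose at the first tunicamycin time. It had 180, 133 and 140 CPM in controls and 446, 591 and 752 at Tu 45 min, from 30000 to 44620 reads. All 3 samples were above 2 times the highest control, and on the log2 scale the rise was 1.99 (standard error 0.215, adjusted p = 0.00491, edgeR), called in each of 6 fits that left out a sample. The level was 452, 214 and 391 CPM at Tu 135 min (log2 fold change 1.23, adjusted p = 0.116, edgeR), still above every control. At Tu 405 min it was 170, 325 and 259 CPM, with replicate 1 inside the control range; on the log2 scale it was higher by 0.76 (standard error 0.240, adjusted p = 0.0312, edgeR). Without control replicate 2 or 3 or Tu 405 min replicate 2 or 3 it was no longer called (adjusted p up to 0.126), nor in the shared fit of 6 groups (adjusted p = 0.127, edgeR).

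Under HS Neat1 was at 154, 158 and 88.1 CPM at 45 min and 146, 322 and 171 at 135 min, against 133 to 180 in controls. It was called at neither time (log2 fold changes -0.18 and 0.50, adjusted p = 0.682 and 0.322, edgeR). Replicate 3 lay below the controls at 45 min and replicate 2 above them at 135 min. Both are samples far along the main axis of variation within groups, which held 76.3% of the variance within groups and on which gene weights followed GC content (Spearman rho 0.709 over 9384 genes). Deviations of Neat1 from its group means correlated with that axis at r = 0.83 over the 18 samples, those of Gas5 at -0.80 and those of Snhg1 at -0.92; the value was 0.62 for Rmrp, 0.55 for Rpph1, -0.29 for Malat1, -0.24 for Snhg9 and -0.03 for Snhg3. The part of this axis in the results above was not tested beyond the fits with a GC offset or a surrogate variable.

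**Figure D4:**
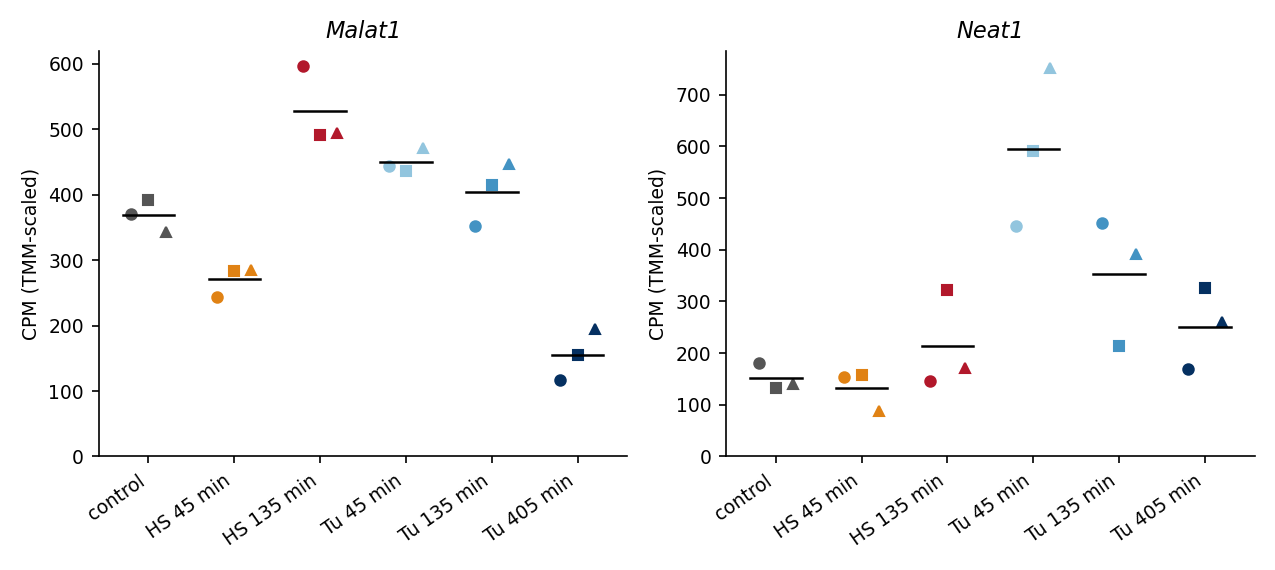
CPM of Malat1 and Neat1 in each sample is plotted by group on linear axes from 0 (circle, square and triangle for replicates 1, 2 and 3; lines are group means). Neat1 is highest at Tu 45 min (446 to 752 CPM) and lower at the later Tu times, while Malat1 is lowest at Tu 405 min (117 to 194 CPM) and highest at HS 135 min (491 to 596 CPM).

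Genes for paraspeckle proteins, which bind Neat1, and other long noncoding RNAs were read beside them. Of 15 paraspeckle genes, 1 was higher and 0 were lower at Tu 45 min (4.01% and 2.17% of all genes), when Neat1 was highest: Cirbp, the cold-inducible RNA-binding protein gene, at 34.7 ± 3.85 against 16.7 ± 0.803 CPM (SD, n = 3; log2 fold change 1.06, adjusted p = 0.00958, edgeR). Later, at Tu 405 min, 5 were higher and 2 lower (23.3% and 23.5% of all genes), with Taf15 highest (1.40, adjusted p = 0.00294, edgeR) and Smarca4 lowest (-0.85, adjusted p = 0.00209, edgeR). Of 17 other long noncoding RNAs tested, 3 were higher and 7 lower at Tu 405 min (23.3% and 23.5% of all genes), the lower ones including Tug1 (-1.95, adjusted p = 0.00205, edgeR) and 2900097C17Rik, also named Norad (-1.15, adjusted p = 0.000516, edgeR). At HS 135 min 1 was called (7.39% of all genes were): H19, an imprinted RNA, at 14.7 ± 3.46 against 3.41 ± 0.970 CPM (SD, n = 3; log2 fold change 2.11, adjusted p = 0.0182, edgeR).

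Between times of 1 stress, 0 of the 8 genes were called for HS 135 min against HS 45 min (0% of all genes), 0 for Tu 135 min against Tu 45 min (0.291%) and 4 for Tu 405 min against Tu 135 min (43.7%). From HS 45 min to HS 135 min 4 of the 8, and 1481 of all genes, had an unadjusted p under 0.05, and the DESeq2 Wald test called 4 of the 8 and 403 genes in all. Rmrp differed by 3.93 (adjusted p = 0.346, edgeR), Rpph1 by 3.63 (0.310) and Snhg9 by -2.80 (0.334), on groups of which HS 45 min held the library that stood apart. From Tu 45 min to Tu 135 min 2 of the 8, and 2010 of all genes, had an unadjusted p under 0.05, and DESeq2 called 1 of the 8 and 617 in all.

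From Tu 135 min to Tu 405 min Gas5 rose by 1.54 (standard error 0.194, adjusted p = 0.000775, edgeR) and Snhg1 by 1.76 (0.293, adjusted p = 0.00253), while Malat1 fell by 1.40 (0.208, adjusted p = 0.00158) and Snhg3 fell by 0.65 (0.218, adjusted p = 0.0422). Over all genes 21.4% were higher and 22.4% lower. The calls of Gas5, Snhg1 and Malat1 held in each of 6 fits that left out a sample, but in the shared fit of 6 groups only that of Malat1 did (adjusted p = 0.0789 for Gas5 and 0.0967 for Snhg1, edgeR). The call of Snhg3 was kept in 1 of the 6, the fit without Tu 135 min replicate 2, and was lost without each of the other 5 samples (adjusted p 0.0588 to 0.125).

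At equal times the stresses were compared directly. At 45 min 0 of the 8 were called (0.204% of all genes), although 5 of the 8, and 3061 of all genes, had an unadjusted p under 0.05 and DESeq2 called 5 of the 8 and 1127 in all. The values were 2.73 for Rmrp (adjusted p = 0.166, edgeR), 2.09 for Rpph1 (0.174), -2.75 for Snhg1 (0.156), -2.16 for Neat1 (0.0653) and -1.53 for Snhg9 (0.232), all HS minus Tu. Without HS 45 min replicate 3, 7 of the 8 were called: Rmrp, Rpph1, Snhg1, Snhg9, Gas5, Malat1 and Neat1, with adjusted p from 0.00104 (Neat1) to 0.00891 (Gas5, edgeR). The share of all genes called in that fit is not given here, and that library was set apart after its values were seen. Nothing is therefore read from this count.

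At 135 min 3 of the 8 were called (2.12% of all genes): Rmrp and Rpph1 higher (1.3%) and Snhg9 lower (0.817%). The log2 fold changes, HS minus Tu, were 6.95 (standard error 1.22, adjusted p = 0.0411, edgeR), 5.24 (0.944, adjusted p = 0.0453) and -4.81 (0.894, adjusted p = 0.0484). Gas5 differed by -1.53 and was not called (adjusted p = 0.268, edgeR). Leaving out any sample but HS 135 min replicate 1 lost all 3 calls (adjusted p 0.0615 to 0.242), with log2 fold changes of 6.11 to 7.54 for Rmrp.

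Per base, on the RPKM scale, the order of the 8 in controls was led by Snhg9 (227 ± 98.3 RPKM, SD, n = 3), followed by Malat1 (45.0 ± 3.12), Neat1 (40.5 ± 5.33), Gas5 (40.1 ± 14.1), Snhg1 (31.5 ± 18.7), Snhg3 (5.28 ± 3.81), Rmrp (2.07 ± 1.05) and Rpph1 (1.51 ± 0.713). Snhg9 stood above the other 7 in every control, and the next 4 overlapped. The lengths behind the deposited RPKM were inferred from count over RPKM, scaled to the annotated span of Malat1. They were 164 bases for Snhg9, 437 for Snhg3 and 476 for Snhg1, taken as their exons as counted. Such short lengths make these levels less certain. For Gas5 the inferred length was 2554 bases of a 3372-base span. Most of its span was thus counted, so its level per base is unlike those of the other host genes. At HS 135 min the means were led by Rmrp (169 ± 151 RPKM), and that of Snhg9 (6.14 ± 5.10) came next to last, before Snhg3 (1.92 ± 0.0252). The order was not that of every sample: in replicate 1 Rmrp (17.5 RPKM) was below Malat1 (72.1), Neat1 (38.9), Gas5 (26.1) and Snhg1 (22.5), and in replicate 2 Snhg9 (3.82) was above Gas5 (2.22) and Snhg1 (1.69).

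The genes whose pattern was most like each member were found by Pearson's r of log2(CPM + 0.5) over the 18 samples, among tested genes with a mean of at least 5 CPM. The samples share groups and libraries, so these values are a description. Rpph1 was most like Rmrp (r = 0.99), with Hspb1, a small heat shock protein gene, next (0.95) and Dnaja4, a J-domain cochaperone gene, after it (0.93); for Rmrp the 3 were Dnaja4 (0.94), Hspb1 (0.94) and D8Ertd82e (0.93). Spearman's rho was lower, at 0.57 for Rmrp and 0.56 for Rpph1 with Hspb1, 0.70 and 0.58 with Dnaja4, 0.63 for Rmrp with D8Ertd82e and 0.88 between Rmrp and Rpph1. Hspb1 was at 12.1, 56.7 and 63.7 CPM at HS 135 min, the same order of samples as Rmrp, and at no more than 1.58 CPM in any other group, so its Pearson values rest on the HS 135 min samples. Hspb1 and Rmrp also passed the mean of 5 CPM only through that group. The filter let in scarce genes that peak there and left out scarce genes that do not, so such likeness was partly built in.

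Snhg1 was most like Gnl3, a nucleolar GTPase gene (0.97), and Taf1d (0.96), itself a host gene on the list above; Gas5 was most like Ufd1l (0.97) and Snora65 (0.96), a small nucleolar RNA. Snhg9 was most like Slc25a11 (0.92), Malat1 like Aox1 (0.92), Neat1 like 3010026O09Rik (0.90) and Snhg3 like Gpbp1 (0.79), the weakest likeness of the 8. Among the 8 themselves, Gas5 and Snhg1 had r = 0.86, Gas5 and Snhg9 0.73, and Rmrp and Snhg9 -0.83.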

How the data were processed

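Per the labels and the study's methods, poly(A) RNA (total RNA in the labels) of 18 samples (6 groups of 3) was sequenced on an Illumina HiSeq, aligned to mm9 and counted on RefSeq genes (DNAnexus); the aligner and counter are not given in the sources used here. Some libraries were made with another kit, and which is not stated. The authors deposited estimated counts per gene (17.7% to 23.2% of values under 1000 reads were not whole) and RPKM values; a score and a signal made from the RPKM were not used.

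Counts were rounded and tested with edgeR 4.0.16 (R 4.3.3): TMM, quasi-likelihood test, Benjamini-Hochberg adjustment over 12731 genes (1 read or more in each of the 18 samples), each comparison on its own 6 samples. Standard errors came from the fold change and F statistic. The step was tested on simulated data with 200 changed genes. For HS 45 min against control it called 59% of 4-fold and 1% of 2-fold changes. These shares were 82% and 6% for HS 135 min, and 100% and 71% for Tu 405 min. For HS 135 min against HS 45 min they were 29% and 0%. A gene not called under HS may therefore still have changed by 2-fold or more. The members and lists were chosen with earlier results of these data known. The text names the 8 genes, up to 2 genes at either end among the called genes of a list, and the 3 genes most like each member. Alternatives were other filters, DESeq2 1.42.0 size factors and Wald test, total counts, a shared fit, 1 surrogate variable (sva 3.50.0), the replicate number as a block, a GC offset (lowess span 0.3) and leaving out each sample. Sequences were read from NCBIM37, the same assembly as mm9. Pairing by replicate number was taken from the labels: deviations of same-numbered samples correlated in every pair for Tu 135 min against control (0.319 to 0.347) and not in the other 9 comparisons. No replicates were alike enough to be 1 library.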

Additional observations from a re-analysis of the deposited data

Results flagged for a closer look

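The effects of HS and Tu at 135 min differed for 3 of the 8 genes by the direct test of 1 stress against the other, which called 2.12% of all genes. The log2 fold change of HS 135 min against Tu 135 min was 6.95 for Rmrp, 5.24 for Rpph1 and -4.81 for Snhg9 (adjusted p = 0.0411, 0.0453 and 0.0484, edgeR). All 3 HS samples of Rmrp (361 to 6783 reads) lay above all 3 Tu samples (10 to 35 reads), and all 3 HS samples of Snhg9 (33 to 147 reads) below all 3 Tu samples (270 to 2961 reads). All 3 calls were lost without any 1 of the samples other than HS 135 min replicate 1 (adjusted p 0.0615 to 0.242, edgeR) and with the replicate block (adjusted p = 0.422, 0.402 and 0.328, edgeR).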

How the results depend on the processing

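Against the control, 7 gene and comparison pairs were called, between time points 4 and HS against Tu 3. The DESeq2 Wald test gave 12, 9 and 8, a shared fit with 1 surrogate variable 18, 9 and 8, and a shared fit of the 6 groups 8, 4 and 6. The shared fit lost Gas5 and Neat1 at Tu 405 min against control and Gas5, Snhg1 and Snhg3 for Tu 405 min against Tu 135 min, so its like counts are not of the same genes. With the replicate block there were 2 calls against the control, 3 between time points and 0 for HS against Tu, and with the replicate block and the GC offset 7, 3 and 0; since the numbers pair the samples by the check above only for Tu 135 min, where the block left 0 calls among the 8 genes as before, the block is given here alone. Leaving out 1 sample gave 4 to 12 calls against the control, 3 to 4 between time points and 0 to 10 for HS against Tu. The 12 and 10 came without HS 45 min replicate 3. Shares of all genes called in these fits are not given, so the rise in calls is not read as particular to the 8 genes. Calls of genes in the fixed lists against the control numbered 75, 74 without the row named Rnu7, and 51 to 112 with 1 sample left out. The log2 fold change of Malat1 at HS 45 min was reversed to 0.028 with the GC offset and to 0.015 with the block and offset. Of 80 pairs, 19 changed sign under some alternative, of which 0 were called and none had a fold change over 0.50 on the log2 scale. Ratios to control on the RPKM scale moved by less than 1 SD on the CPM scale in 37 of 40. The cause of these differences was not tested. Rmrp and Rpph1 in unstressed cells rest on few reads, and their folds are uncertain.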
